A study of Mus musculus with 23 samples.

Results

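The early meiotic course was read in sorted testis cells of Spo11-/- mice, from 3 arrays of 23: 1 each of spermatogonia, pre-leptotene and leptotene/zygotene cells. Values are the array intensities as log2(value + 1), and a gene was counted as a member of the course where its value in leptotene/zygotene cells lay at least log2 1 above or below its value in spermatogonia. Of 18193 genes on the array, 1450 (7.97%) met this rule, 852 higher (4.68%) and 598 lower (3.29%) in leptotene/zygotene cells. Each fraction has a single Spo11-/- array, so the members and their values are a description with no test. Pairs of wild-type arrays of the same fraction differed by at least log2 1 at 1580 to 3355 genes among spermatogonia, 1224 to 1799 among pre-leptotene cells and 1291 to 1900 among leptotene/zygotene cells, so 1450 genes is within the number that separates 2 replicate arrays. A wild-type leptotene/zygotene array set against a wild-type spermatogonia array gave 1541 to 3332 genes over the 12 such pairs.

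Spermatogonia are the dividing germ cells of the testis. At pre-leptotene they replicate their DNA a last time and enter meiosis, and in leptotene and zygotene the chromosomes form axes, are cut by the SPO11 enzyme, which makes the programmed double-strand breaks of meiosis, and begin to pair. Male mice without SPO11 make no breaks and lose their spermatocytes before mid-pachytene, so that the adult testis holds no spermatids, the haploid cells whose abundant RNA can be carried into sorted fractions of a normal testis.

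The 3 Spo11-/- arrays came from males aged 10 to 16 weeks, homozygous for the null allele, with cells sorted by FACS after staining of their DNA with Hoechst dye. Each fraction was collected on 2 occasions, from 4 and from 3 mice, and combined before hybridisation, so a Spo11-/- array is a pool of animals. They were set beside 10 arrays of the same 3 fractions from C57BL6xDBA2J F1 males of the same ages, taken here as wild type, with 4, 3 and 3 arrays for spermatogonia, pre-leptotene and leptotene/zygotene cells. The later wild-type fractions, from early-pachytene cells to round spermatids, gave the other 10 arrays. No strain is given for the Spo11-/- mice and the wild-type sorts are described as an earlier collection, so genotype, strain and collection cannot be told apart. Wild-type replicates are called biological without naming animals, and p-values here measure the spread between those samples. The median intensity ran from 10.63 to 12.56 over the 23 arrays and from 10.63 to 11.33 over the Spo11-/- arrays, and 44.2% to 47.3% of probe sets reached log2 4, the level below which a value is treated as not above background. In bulk RNA, fewer cells of a type and less RNA per cell cannot be told apart.

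Spo11 itself, the deleted gene, measured 4.30 in Spo11-/- spermatogonia, 4.80 in pre-leptotene and 5.21 in leptotene/zygotene cells, against 7.42, 8.73 and 8.95 in the wild-type leptotene/zygotene arrays and 4.60, 6.69, 5.74 and 6.69 in wild-type spermatogonia. The Spo11-/- leptotene/zygotene value lay below all 3 wild-type arrays of that fraction. Which exons the probes cover is not given in the sources used here, so the probe set may lie outside the deleted part. Sycp3, a core protein of the chromosome axis, was high in all 3 Spo11-/- arrays, at 13.37, 13.01 and 13.65 in stage order. Stra8, which drives the entry into meiosis, read 11.47, 10.81 and 11.74, and Kit, the receptor of differentiating spermatogonia, 11.36, 10.62 and 11.86. Dmc1, the meiotic strand-exchange protein, read 10.32, 9.71 and 9.71. For these 4 genes the spermatogonia value was within log2 1 of the leptotene/zygotene value.

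The Spo11-/- spermatogonia and leptotene/zygotene arrays were close to each other and both were closest to wild-type pre-leptotene cells. Across the 12015 genes kept for testing, Spearman's rho was 0.974 between the Spo11-/- leptotene/zygotene and spermatogonia arrays. Spo11-/- leptotene/zygotene cells correlated at 0.946 with the wild-type pre-leptotene mean, 0.899 with the leptotene/zygotene mean and 0.881 with the spermatogonia mean. Spo11-/- spermatogonia gave 0.942 with wild-type pre-leptotene cells and 0.881 with each of the other 2 means. The Spo11-/- pre-leptotene array stood further off, at 0.878 with its own wild-type fraction, 0.929 with Spo11-/- spermatogonia and 0.917 with Spo11-/- leptotene/zygotene cells. These coefficients are across genes of arrays normalised together, and genes are not replicates.

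T cell and natural killer cell markers set the Spo11-/- pre-leptotene array apart from the other 2 and from wild type. Of 25 T cell and natural killer cell markers on the array, 7, 23 and 2 reached log2 4 in Spo11-/- spermatogonia, pre-leptotene and leptotene/zygotene cells, with medians of 3.03, 7.47 and 2.79. In wild-type cells of the 3 fractions the medians of this list ran from 2.64 to 4.06. Macrophage markers gave Spo11-/- medians of 3.19, 6.16 and 3.39 in stage order, with 4, 18 and 6 of 19 at log2 4 or more. In wild type those medians were 5.08 to 7.68 in spermatogonia, 6.72, 3.35 and 3.31 in pre-leptotene cells and 3.27 to 3.61 in leptotene/zygotene cells, so wild-type pre-leptotene array 1 was above the Spo11-/- one for macrophage markers. The pre-leptotene values below therefore stand beside this leukocyte signal, and its part in them was not tested.

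**Figure D1:**
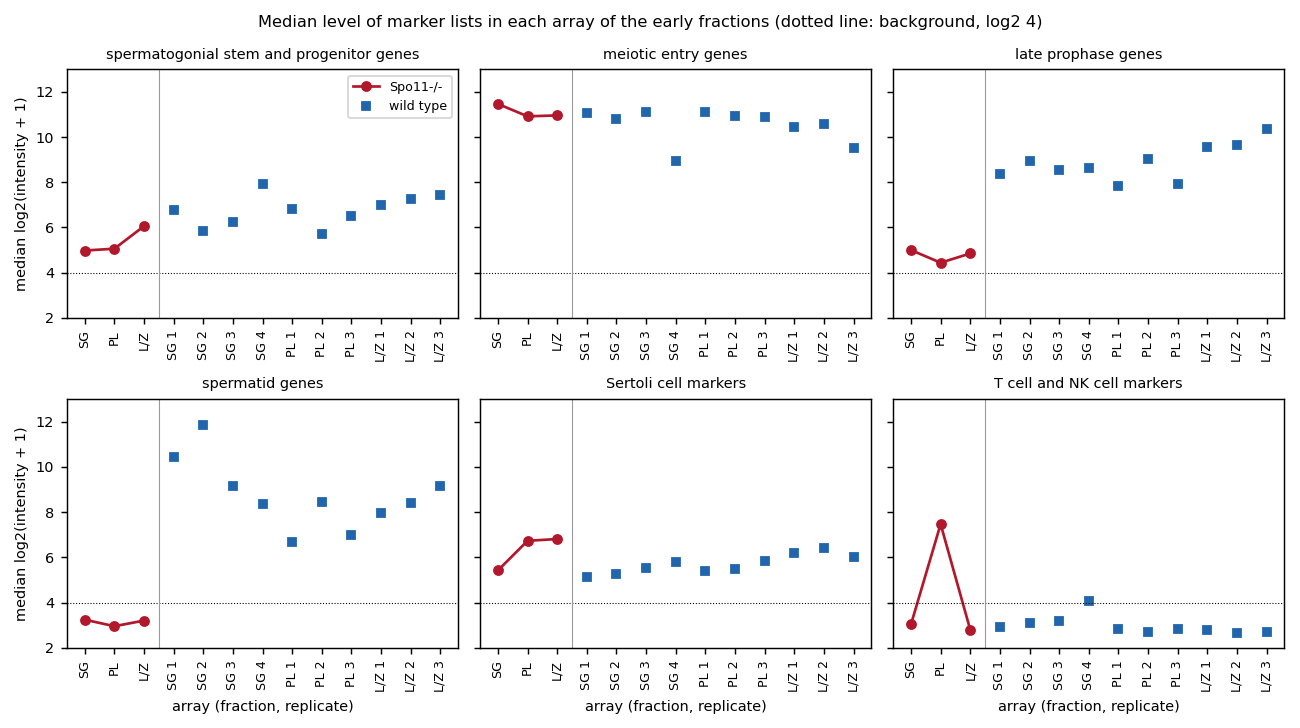
Median log2(intensity + 1) of 6 gene lists in each array of the early fractions, with the 3 Spo11-/- arrays (circles, joined in stage order) left of the 10 wild-type arrays (squares); SG is spermatogonia, PL pre-leptotene and L/Z leptotene/zygotene, and each point is 1 array. Spermatid genes lie at 2.95 to 3.24 in Spo11-/- arrays and at 6.68 to 11.85 in wild-type arrays, and the T cell list peaks at 7.47 in Spo11-/- pre-leptotene cells.

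Among the 852 genes higher in Spo11-/- leptotene/zygotene cells, 552 were at log2 4 or more in both arrays, 270 in leptotene/zygotene cells alone and 30 in neither. Among the 598 lower genes these numbers were 453 in both arrays, 124 in spermatogonia alone and 21 in neither. At least log2 2 separated the 2 arrays at 137 higher and 52 lower genes, or 97 and 36 when any value under log2 4 was raised to 4, which is the bound used for ranking. The array between them in the stage order was not an even midpoint. Over all 18193 genes it differed by at least log2 1 from spermatogonia at 2173 and from leptotene/zygotene cells at 2665. Those 2 arrays differed from each other at 1450. The counts that follow were made for members only, so they have no share over all genes beside them. Of 822 higher genes measured in at least 1 of the 2 arrays, pre-leptotene cells had passed the midpoint towards the leptotene/zygotene value at 270 and exceeded that value by at least log2 1 at a further 81, while 448 stayed nearer to spermatogonia and 23 lay at least log2 1 below them. Of 577 lower genes so measured, 202 had passed the midpoint, 312 had not, and 63 were at least log2 1 above spermatogonia before being lowest in leptotene/zygotene cells.

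Of the 15 genes with the largest gain, 12 lay below every wild-type leptotene/zygotene array in Spo11-/- leptotene/zygotene cells, 2 lay between those arrays and 1 lay above them all. Of all 852 higher genes 40.1% lay below every wild-type array of that fraction, as did 25% of all genes on the array. Above every such array lay 34.2% of the higher genes and 37.6% of all genes. Lin28a, an RNA-binding protein of undifferentiated spermatogonia, measured 5.66 in Spo11-/- spermatogonia, 5.08 in pre-leptotene and 8.66 in leptotene/zygotene cells. In wild type it read 10.56, 10.38 and 10.55 in leptotene/zygotene cells and 9.84, 8.06, 7.92 and 11.01 in spermatogonia. Both Spo11-/- values lay below every wild-type array of their own fraction. Hivep2, a zinc-finger transcription factor, gave 3.79, 6.28 and 7.99 in the 3 Spo11-/- stages, against 8.49, 7.99 and 8.17 in wild-type leptotene/zygotene cells and 7.17, 5.70, 6.38 and 8.71 in wild-type spermatogonia. Ptgds, which makes prostaglandin D2, gave 3.38, 6.71 and 7.58, against 9.26, 8.90 and 9.22 in wild-type leptotene/zygotene cells and 8.54, 8.31, 7.19 and 8.89 in wild-type spermatogonia. For both genes the Spo11-/- spermatogonia array was below background while all 4 wild-type spermatogonia arrays were above it.

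The cell-cycle gene Ccnd2, cyclin D2, which acts in the G1 phase of spermatogonia, read 4.66, 11.27 and 7.47 through the Spo11-/- stages, so it was highest in the pre-leptotene array. Lasp1, an actin-binding protein, followed the same shape with 6.04, 10.83 and 9.24, and so did Mbnl2, a regulator of splicing, with 3.79, 8.68 and 6.76. Sgk1, a kinase induced by serum and glucocorticoids, read 6.24, 9.23 and 9.01. The other genes with a large gain were Tmem255a, Sh3d19, Zfp462, Lcn2, Aff3, Nab2, Zdhhc14 and Orly, with bounded log2 differences of 2.76 to 3.39. Orly, a Y-linked multicopy transcript whose probes may read several copies, was the 1 gene of the 15 whose Spo11-/- spermatogonia value, 4.62, was not below all 4 wild-type spermatogonia arrays. Ranking by gain favours a low spermatogonia value, so this position follows in part from the choice of genes. Spo11-/- spermatogonia lay below all 4 of those arrays at 59% of the 852 higher genes and at 21.7% of all genes. Pre-leptotene cells gave 4.62 for Orly, and leptotene/zygotene cells 8.01. Of the 15 genes, 0 passed the limma test in wild type described below, where 2179 of 12015 genes had an unadjusted p below 0.05.

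**Figure D2:**
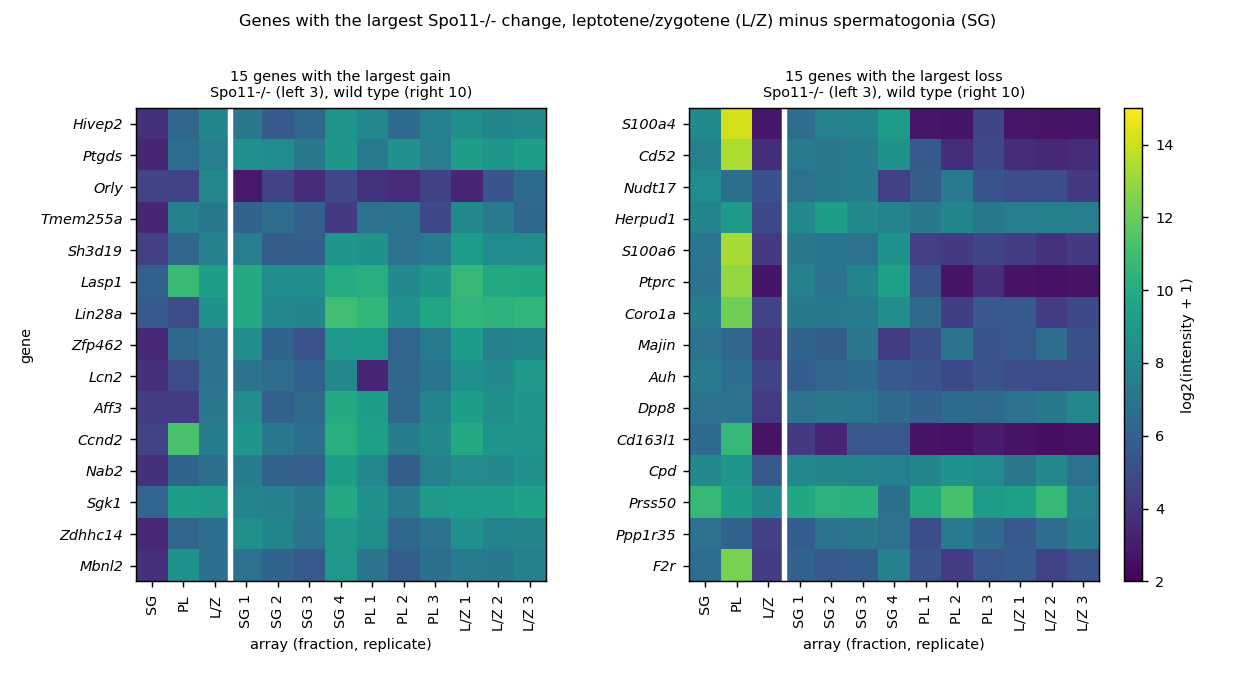
Log2(intensity + 1) (colour) of the 15 genes with the largest gain (left panel) and the 15 with the largest loss (right panel) between Spo11-/- spermatogonia (SG) and leptotene/zygotene cells (L/Z), in the 3 Spo11-/- arrays, left of the white line, and the 10 wild-type arrays, right of it; PL is pre-leptotene. Genes of the left panel are dark in Spo11-/- spermatogonia and lighter in most wild-type arrays, and S100a4, Cd52, S100a6, Ptprc, Coro1a and F2r are brightest in Spo11-/- pre-leptotene cells, at 12.17 to 14.17.

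The genes with the largest loss included several that leukocytes express. S100a4, a calcium-binding protein of leukocytes and fibroblasts, measured 8.19 in Spo11-/- spermatogonia, 14.17 in pre-leptotene and 2.81 in leptotene/zygotene cells. Wild-type leptotene/zygotene cells held 2.78, 2.67 and 2.72, and wild-type spermatogonia 6.70, 7.78, 7.84 and 9.12. Ptprc, which encodes the pan-leukocyte antigen CD45, read 6.93, 12.91 and 2.76 through the Spo11-/- stages, against 2.70, 2.63 and 2.71 in wild-type leptotene/zygotene cells and 7.66, 6.99, 7.84 and 9.39 in wild-type spermatogonia. In both genotypes the leptotene/zygotene arrays were at background and the spermatogonia arrays clearly above it. Cd52, Coro1a and Cd163l1, all expressed by lymphoid cells, and S100a6 and F2r were likewise highest in the pre-leptotene array, with Spo11-/- pre-leptotene values of 10.68 to 13.39. Thy1, a surface protein of T cells that also marks spermatogonial stem cells, read 6.27, 11.83 and 2.5 in the 3 Spo11-/- stages.

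Other large losses had no such peak. Majin, which anchors meiotic telomeres to the nuclear envelope, read 6.85, 6.31 and 4.06 in stage order. In wild type it did not differ detectably between the fractions, with a log2 change of -0.06 ± 0.57 (SE; limma, adjusted p = 0.981). Prss50, a testis serine protease, read 10.64, 9.25 and 8.19. Nudt17, Herpud1, an endoplasmic reticulum stress protein, Auh, Dpp8, Cpd and Ppp1r35 made up the rest, with bounded differences of -2.41 to -3.02. Auh was carried by 1 measured probe set, and 1 of 3 measured probe sets of Dpp8 moved the other way. Of 425 members with more than 1 measured probe set, all sets moved the same way at 344.

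At the edge of the rule, Zfp820, Gstm7, Klhl13 and Skp2 lay just inside on the higher side, the last with a difference of 1.01, and Fam171a1, Irf1, Ofd1 and Bag3 just outside with differences that also round to 1.0. On the lower side Tmed4, Gatd3a, Tfr2 and Pou4f1 lay just inside at -1.0, and Cfap97, Slc27a1, Exd2 and Tmem9b just outside, at -1.0 to -0.99. X-linked genes were 37 of the higher members (4.36% of those with a chromosome) and 29 of the lower (4.85%), against 3.42% of all genes.

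Genes were then read by their roles, from 29 lists, beside the 4.68% of all genes higher and 3.29% lower and a median Spo11-/- difference of 0.01 over all genes. Spermatogonial stem and progenitor genes, which sustain the undifferentiated pool, had 7 of 20 higher and 1 lower in leptotene/zygotene cells, with a median of 0.63. The higher ones included Lin28a, Upp1 (3.73, 4.77 and 6.08 in stage order), Id4 (5.06, 5.03 and 6.92) and Gfra1, the receptor for glial-derived growth factor (3.62, 3.58 and 5.01), and the lower one was Thy1. In wild type the median of this list was 0.55 and 0 of its 18 tested genes passed. The wild-type groups overlapped, with list medians of 6.98, 7.28 and 7.45 in leptotene/zygotene cells and 6.79, 5.83, 6.26 and 7.92 in spermatogonia.

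Spermatogonial differentiation genes were split, with 2 of 18 higher (Ccnd2 and Kitl) and 2 lower (Tex101 and Esx1). Of 11 meiotic entry genes, 0 were higher and 3 lower, with a median of -0.61, against a wild-type median of -0.01. Prdm9, the histone methyltransferase that places the breaks, read 7.13, 5.86 and 5.38 in the Spo11-/- stages, against 4.77, 4.76 and 4.49 in wild-type leptotene/zygotene cells and 5.38, 6.03, 6.10 and 4.34 in wild-type spermatogonia. Its Spo11-/- spermatogonia value was above every wild-type array of both fractions. Meioc, which stabilises the meiotic programme, read 11.84, 11.54 and 10.33, and Rec8, the meiotic cohesin subunit, 8.62, 7.59 and 7.50. In wild type 0 of these 3 genes passed the test.

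Break formation and repair genes were read in 3 lists. Of 8 double-strand break formation genes 0 were higher and 1, Prdm9, lower, of 17 chromosome axis and synaptonemal complex genes 1 was higher (Hormad2, 5.21, 5.39 and 6.33) and 1 lower (Rec8), and of 26 strand exchange and crossover genes 0 were higher and 1 lower (Helq, a helicase, 8.25, 7.92 and 6.93). Their medians were -0.14, -0.22 and -0.34. Among 22 genes of damage signalling and sex chromosome silencing, Ube2a, which ubiquitinates histones, was higher (7.68, 9.06 and 9.06), and Atrip, the partner of the ATR kinase, and H2ax, the histone phosphorylated at breaks, were lower. H2ax read 10.08, 8.93 and 8.98 in the Spo11-/- stages, against 9.42, 9.84 and 9.49 in wild-type leptotene/zygotene cells and 8.98, 8.97, 9.51 and 8.86 in wild-type spermatogonia. Its Spo11-/- leptotene/zygotene value was below, and its spermatogonia value above, every wild-type array of the same fraction.

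Replication and division genes stayed high in all 3 Spo11-/- arrays. DNA replication genes had medians of 11.52, 11.33 and 11.24 in stage order, with 0 of 37 higher and 2 lower: Prim1, a primase subunit, at 11.91, 11.55 and 10.53, and Tk1, thymidine kinase, at 8.85, 8.72 and 7.57. Tk1 passed in wild type too, with a log2 change of -1.58 ± 0.27 (limma, adjusted p = 0.0093), together with 2 other genes of the list. Of 29 mitotic division genes 0 were higher and 1 was lower, E2f2, which read 6.28, 6.32 and 4.10. Cdk1, the kinase of mitosis, read 11.53, 9.65 and 10.78, and Top2a 13.26, 11.70 and 12.58, so both were lowest in the pre-leptotene array. The median of the division list was -0.17 in Spo11-/- cells and 0.55 in wild-type cells.

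Genes of the piRNA pathway, which silences transposons, had 4 of 22 higher and 0 lower, with a median of 0.27 in Spo11-/- cells and 0.60 in wild type. Stk31 read 10.48, 10.25 and 11.73 through the Spo11-/- stages, Asz1 10.63, 10.25 and 11.77, and Tdrd5 6.76, 6.25 and 7.84. Piwil1, the PIWI protein of pachytene piRNAs, read 5.70, 4.84 and 6.86 in Spo11-/- cells, against 9.91, 10.41 and 9.88 in wild-type leptotene/zygotene cells and 7.30, 7.37, 6.43 and 7.89 in wild-type spermatogonia. Its Spo11-/- leptotene/zygotene value was lower than all 3 wild-type arrays by at least log2 2. The wild-type change of Piwil1 was 2.82 ± 0.29 (limma, adjusted p = 0.000117).

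Late prophase and spermatid genes were low in the Spo11-/- arrays. Of 31 late prophase genes, 17, 16 and 20 reached log2 4 in the 3 Spo11-/- stages, with medians of 5.0, 4.44 and 4.85, against 9.58 to 10.35 in wild-type leptotene/zygotene cells and 8.36 to 8.95 in wild-type spermatogonia. Ccna1, the cyclin of late prophase, read 3.73, 3.71 and 4.85, and was 1 of 2 higher genes of the list with Piwil1; in wild type 7 of 29 tested genes passed as higher and 0 as lower. Mybl1, the transcription factor that turns on pachytene genes, read 6.23, 5.40 and 6.27 in Spo11-/- cells, against a wild-type change of 1.59 ± 0.33 (limma, adjusted p = 0.019). Of 49 spermatid genes, 11, 12 and 12 reached log2 4 in the Spo11-/- stages, with medians of 3.24, 2.95 and 3.20. Prm1, a protamine that packs sperm DNA, read 3.35, 3.17 and 3.29 in Spo11-/- cells, and 14.31, 13.45 and 13.60 in wild-type leptotene/zygotene cells and 15.13, 15.45, 14.68 and 13.86 in wild-type spermatogonia. Prm1 was at background in all 3 Spo11-/- arrays and far above it in these wild-type arrays. In the wild-type step 2 of 49 spermatid genes passed as higher and 14 as lower, and the 3 higher and 3 lower in Spo11-/- cells had values near log2 4, such as Akap3 (2.82, 3.24 and 4.43) and H1f7 (4.06, 3.60 and 2.24).

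Motile cilia genes, used for the sperm tail, had 2 of 35 higher and 1 lower in Spo11-/- cells, with a median of 0.02, and 7 of 33 tested genes higher and 0 lower in wild type, with a median of 1.33. Only 14, 13 and 13 of the 35 reached log2 4 in the Spo11-/- stages. The Spo11-/- median was 0.27 over the 16 at log2 4 or more in spermatogonia or leptotene/zygotene cells. Rsph1, a radial spoke protein, was higher in both, at 5.86, 5.06 and 7.11 in the Spo11-/- stages, against 11.35, 12.31 and 13.13 in wild-type leptotene/zygotene cells and 9.03, 10.50, 8.43 and 10.28 in wild-type spermatogonia. Testis-specific histone and variant genes had 1 of 14 higher and 3 lower. Among chromatin regulators, histone acetyltransferases had 1 higher (Kat2b, 6.18, 8.47 and 7.61) and 1 lower (Ncoa1) of 23, deacetylases 0 and 1 (Sirt2) of 18, bromodomain readers 1 (Smarca2) and 2 (Atad2b and Atad2) of 28, H3K4 methylation genes 3 (Kdm1b, Kmt2c and Kdm5d) and 1 (Prdm9) of 24, and H3K9 methylation genes 2 (Suv39h2 and Kdm4b) and 1 (Cbx3) of 18. Retinoic acid genes had 1 higher, Aldh1a1, and 1 lower, Dhrs4, of 21, and p53 target genes 0 higher and 1 lower, Tnfrsf10b, of 22.

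**Figure D3:**
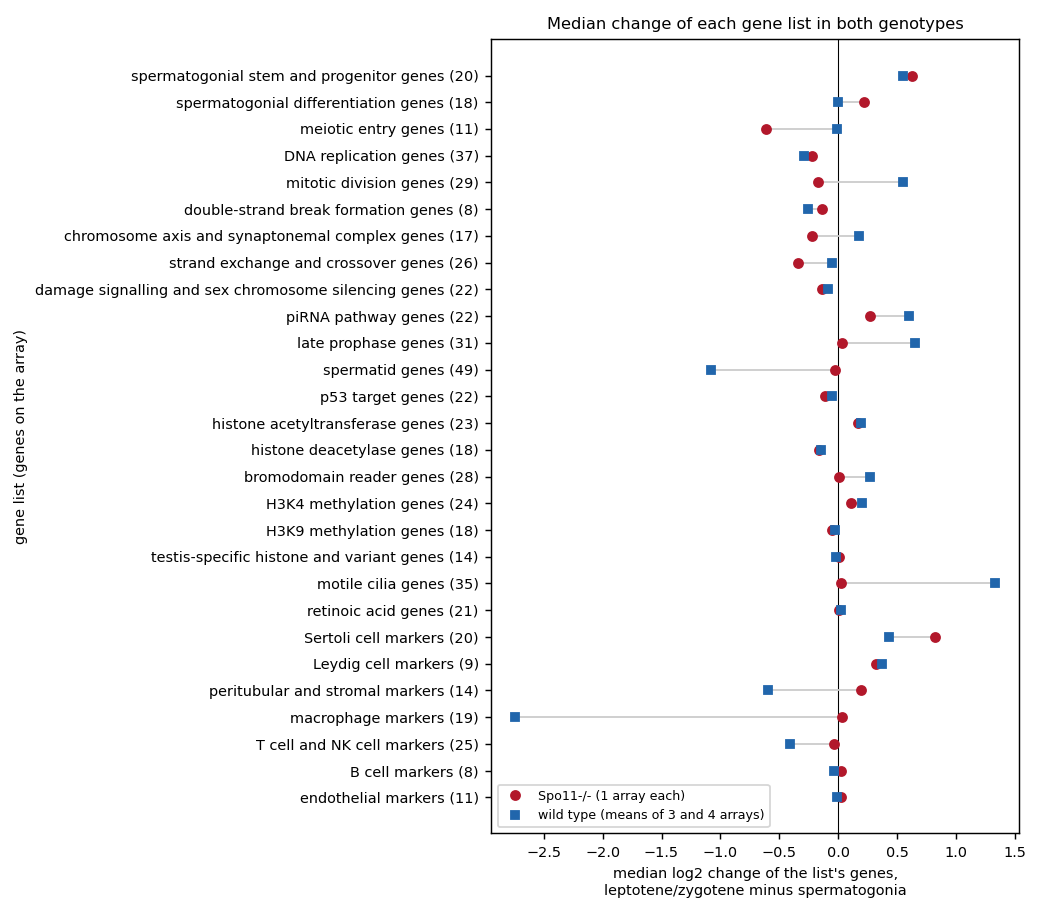
Median log2 difference of the genes of each of 28 lists, leptotene/zygotene minus spermatogonia, in Spo11-/- cells (circles, 1 array each) and wild-type cells (squares, group means); numbers in brackets are the genes on the array, and red blood cell markers, at background, are not drawn. Stem and progenitor genes lie right of 0 in both genotypes (0.63 and 0.55), while motile cilia genes (0.02 and 1.33) and macrophage markers (0.03 and -2.74) lie far from 0 in wild type alone.

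Markers of Sertoli cells, the nurse cells of the germ line, were often among the genes higher in Spo11-/- leptotene/zygotene cells: 9 of 20 were higher and 0 lower, the largest share of the 29 lists, with a median of 0.82. Wt1, a Sertoli transcription factor, read 5.30, 7.01 and 7.42 in the 3 Spo11-/- stages, against 5.52, 5.95 and 6.11 in wild-type leptotene/zygotene cells and 5.06, 4.94, 5.32 and 6.37 in wild-type spermatogonia. Clu, clusterin, read 11.30, 13.12 and 13.04, Cldn11, of the Sertoli tight junctions, 5.30, 6.73 and 6.72, and Aard 9.57, 10.96 and 11.04. In each case the spermatogonia value was the lowest of the 3. The list's medians were 5.42, 6.73 and 6.81 with 14, 15 and 15 of 20 genes at log2 4 or more in the Spo11-/- stages, and ran from 5.15 to 6.41 in the 10 wild-type arrays. Its part in the higher genes was not tested. In wild type the median change of these markers was 0.43 and 0 of 15 passed.

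Leydig cell markers had 2 of 9 higher, peritubular and stromal markers 2 of 14, macrophage markers 2 of 19, and B cell (8), endothelial (11) and red blood cell markers (5) had 0 members. T cell and natural killer cell markers had 5 of 25 lower and 0 higher. Dcn, decorin of connective tissue, read 2.79, 11.63 and 5.28 in Spo11-/- cells, and Lyz1, a lysozyme, 3.19, 11.89 and 4.73. Both were higher in leptotene/zygotene cells than in spermatogonia but peaked in the pre-leptotene array. In wild type macrophage markers had 8 of 18 tested genes lower and peritubular and stromal markers 3 of 11, with 0 higher in either list.

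The same step in wild type was tested with limma on 12015 genes with log2 of at least 4 in 2 or more of the 13 early arrays, calling a gene at a Benjamini-Hochberg adjusted p below 0.05 and a log2 change of at least 1. Leptotene/zygotene cells had 197 genes higher (1.64%) and 207 lower (1.72%) than spermatogonia. Of the 852 genes higher in Spo11-/- cells, 805 were tested, and 41 rose in wild type too while 11 fell. Of the 598 lower genes, 577 were tested, and 38 fell in wild type while 7 rose. As shares of all members these are 4.81% and 1.29% of the higher genes, and 6.35% and 1.17% of the lower. The mean wild-type change was above 0 at 77.7% of the higher and 25.9% of the lower genes, with medians of 0.52 and -0.38. It was above 0 at 41.8% of all 18193 genes, which include those not tested, while most members were tested. Over the 12015 genes tested the median wild-type change was 0.03. Across the tested genes the Spo11-/- and wild-type differences correlated at r = 0.27, a description across genes.

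These counts lean on single wild-type arrays, and leaving out any 1 of the 7 moved at least 1 count by over 1.5 times. A fit of the 10 wild-type early arrays alone called 9 genes higher and 10 lower, of which 2 and 7 were members in the same direction. Without spermatogonia array 1 the wild-type counts were 69 higher and 84 lower, without array 4 they were 507 and 568, without leptotene/zygotene array 2 they were 26 and 17, and without array 3 of that fraction 32 and 25. The shared genes then numbered 18 and 24, 144 and 92, 8 and 10, and 9 and 11, higher and lower in both. Without spermatogonia array 2, 137 genes were lower and 21 were higher in both, without array 3, 78 were higher and 17 were higher in both, and without leptotene/zygotene array 1, 125 were lower. Wild-type spermatogonia arrays also differed in spermatid genes, whose medians in them were 10.43, 11.85, 9.16 and 8.38, and without the 2 arrays with the highest medians, 1 and 2, 66 genes were higher and 77 lower.

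**Figure D4:**
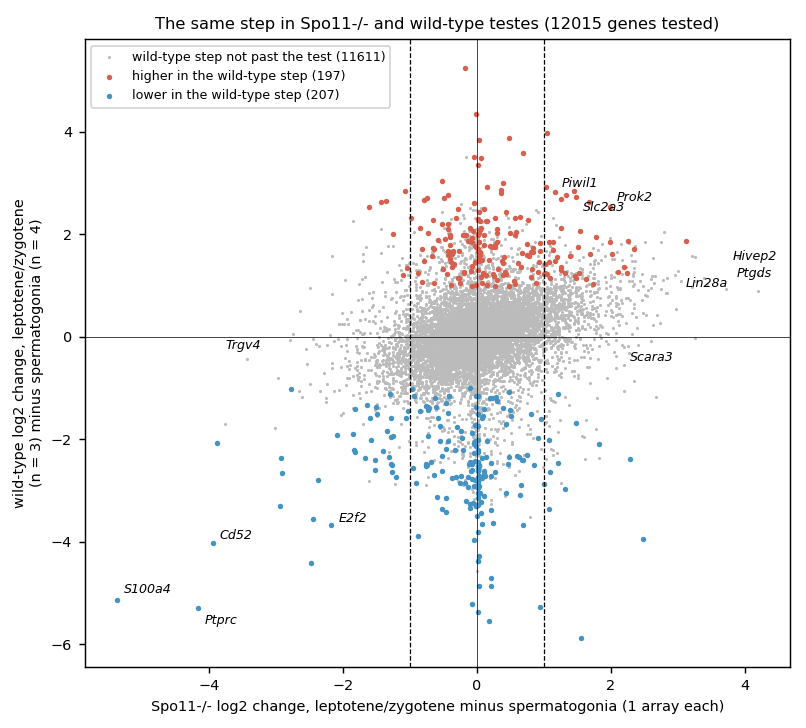
Log2 difference between leptotene/zygotene cells and spermatogonia in Spo11-/- cells (horizontal, 1 array each) and in wild type (vertical, 3 and 4 arrays), 1 point for each of 12015 genes tested, coloured by the wild-type limma call; dashed lines mark log2 1 in Spo11-/- cells. Of the 197 red and 207 blue points, 106 and 118 lie within log2 0.5 of 0 on the Spo11-/- axis, and S100a4, Ptprc, Cd52 and E2f2 lie low in both genotypes.

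Predicted names were left out in ranking the 41 genes higher in Spo11-/- cells that rose in wild type. The largest wild-type changes among the rest were those of Glipr1l2 (3.98), Chst1 (2.93), Piwil1 (2.82), B3galnt1 (2.77) and Slc2a3 (2.73). Slc2a3, a glucose transporter, read 5.43, 8.57 and 6.90 in the Spo11-/- stages, against 13.33, 13.95 and 14.55 in wild-type leptotene/zygotene cells and 10.62, 12.01, 9.92 and 12.30 in wild-type spermatogonia. Chst1, a sulfotransferase, read 6.02, 5.23 and 7.04, against 8.58, 9.94 and 8.49 in wild-type leptotene/zygotene cells and 5.99, 6.73, 5.72 and 5.83 in wild-type spermatogonia. The wild-type groups did not overlap for either gene, and the Spo11-/- leptotene/zygotene values were below all wild-type ones of that fraction. So were those of 25 of the 41, of 40.1% of all 852 higher genes and of 25% of all genes on the array. Choosing genes by their wild-type rise favours high wild-type leptotene/zygotene values, so both positions follow in part from the choice of genes. Of the 41, 20 rose further in wild-type mid-pachytene cells, where 10.8% of all 852 higher genes and 13.8% of the genes tested rose.

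Of the 41, 4 are shown by promoter because they had the largest Spo11-/- gains among those with a promoter that could be printed: Nkx1-2, a homeobox gene (3.25, 2.93 and 6.38 in the Spo11-/- stages; wild-type change 1.87), Shisa3, a modulator of receptor maturation (3.82, 2.86 and 6.17; 1.71), Wnk3, a kinase of ion transport (5.64, 6.25 and 7.74; 1.26), and Lad1, ladinin of basement membranes (4.42, 2.54 and 6.40; at least 1.18, being at background in wild-type spermatogonia). The sequences are the 250 bases before the start on the gene's strand, from RefSeq on GRCm38.p6, at chr7:132599638-132599887 (minus), chr5:67607633-67607882 (plus), chrX:151197828-151198077 (plus) and chr1:135818348-135818597 (plus), and capitals mark motif matches.
Nkx1-2: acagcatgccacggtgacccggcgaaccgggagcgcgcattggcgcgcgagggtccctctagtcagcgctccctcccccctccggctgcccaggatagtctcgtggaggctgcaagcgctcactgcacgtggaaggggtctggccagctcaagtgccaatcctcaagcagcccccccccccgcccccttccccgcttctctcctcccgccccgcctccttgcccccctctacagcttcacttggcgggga
Shisa3: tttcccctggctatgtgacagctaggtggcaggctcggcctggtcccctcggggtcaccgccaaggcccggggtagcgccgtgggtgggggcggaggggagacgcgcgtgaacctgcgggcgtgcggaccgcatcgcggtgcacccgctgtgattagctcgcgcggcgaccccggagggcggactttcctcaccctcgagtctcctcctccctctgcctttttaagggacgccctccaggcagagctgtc
Wnk3: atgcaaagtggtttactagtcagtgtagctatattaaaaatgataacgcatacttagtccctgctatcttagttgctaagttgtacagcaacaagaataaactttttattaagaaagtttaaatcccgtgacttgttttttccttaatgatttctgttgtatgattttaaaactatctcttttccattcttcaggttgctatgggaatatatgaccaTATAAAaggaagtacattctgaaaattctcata
Lad1: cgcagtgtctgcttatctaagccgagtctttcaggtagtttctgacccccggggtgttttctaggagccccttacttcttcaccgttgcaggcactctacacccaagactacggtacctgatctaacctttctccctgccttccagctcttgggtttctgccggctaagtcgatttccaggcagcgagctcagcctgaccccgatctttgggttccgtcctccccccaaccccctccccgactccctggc
The motifs searched on both strands, with none overlapping another in these windows, were CNCCTCAG, linked to STRA8, TTTNGCGC, linked to E2F factors, AACNGNC, linked to MYB factors, and TATAAA, the TATA box. The 4 windows held 1 match, a TATA box of Wnk3. Among the genes on the array with a listed promoter (14452), 7.1%, 1.7%, 28% and 9.02% held the 4 motifs in this order, among the higher Spo11-/- genes (660) 5.15%, 1.06%, 25.8% and 7.58%, and among the lower genes (487) 9.03%, 1.03%, 24% and 6.98%. A match is a string of letters and not a binding site.

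Of the 38 genes lower in Spo11-/- cells that fell in wild type, 20 were at least log2 1 higher in Spo11-/- pre-leptotene cells than in spermatogonia. The same held at 63 of the 577 lower genes measured in at least 1 of the Spo11-/- spermatogonia and leptotene/zygotene arrays. Its share over all genes was not counted for this direction alone. In either direction, Spo11-/- pre-leptotene cells differed from Spo11-/- spermatogonia by at least log2 1 at 2173 of all 18193 genes. The largest wild-type changes were those of Ptprc (-5.29 ± 0.52, adjusted p = 7.33e-05), S100a4 (-5.14 ± 0.47, 7.33e-05), Laptm5 (-4.41 ± 0.72, 0.00706), Cd52 (-4.02 ± 0.39, 7.33e-05) and E2f2 (-3.68 ± 0.43, 0.000268), all from limma. For Ptprc, S100a4 and Cd52 wild-type leptotene/zygotene cells were at background, so that Ptprc fell by at least 3.97, S100a4 fell by at least 3.86 and Cd52 fell by at least 3.64 on the log2 scale. E2f2, an E2F factor of the cell cycle, had no leukocyte-like peak: it read 6.28, 6.32 and 4.10 in the Spo11-/- stages, against 4.39, 4.16 and 4.57 in wild-type leptotene/zygotene cells and 7.87, 8.49, 9.02 and 6.82 in wild-type spermatogonia. In both genotypes its leptotene/zygotene values were below its spermatogonia values.

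Of the 11 and 7 members whose wild-type change passed in the opposite direction, those with the largest changes are given, leaving out predicted names. Of the genes higher in Spo11-/- cells, Lyz1, Dcn, Ppp2r2b, Morn3 and Otub2 had the largest falls in wild type, from -2.64 to -5.88, and their Spo11-/- spermatogonia values were 2.10 to 3.52. Of the lower genes without predicted names, Prss45, Syngr4, Nipbl and Wfdc15a had the largest rises in wild type, of 2.65, 2.00, 1.34 and 1.21. Nipbl, the cohesin loader, read 9.06, 9.44 and 8.01 in the Spo11-/- stages, against 9.93, 10.74 and 10.38 in wild-type leptotene/zygotene cells and 9.19, 8.88, 8.17 and 9.82 in wild-type spermatogonia. It was measured by 5 probe sets, of which 3 moved down in Spo11-/- cells.

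Of the 197 genes that rose in the wild-type step, 106 (53.8%) differed by less than log2 0.5 between the Spo11-/- arrays, against 65.3% of the genes tested, and 54 (27.4%) were below log2 4 in all 3 of them, against 8.73% of the genes tested. Of the 207 that fell, these numbers were 118 (57%) and 75 (36.2%). Of the same 2 sets, 152 (77.2%) and 113 (54.6%) were at least log2 1 higher in round spermatids than in leptotene/zygotene cells, against 26.3% of the genes tested. Predicted names aside, the largest rises without a Spo11-/- difference were in Cers3, a ceramide synthase (5.25), Meiob (3.88), Tmem30c (3.01), Uggt2 (2.93) and Fam181a. Fam181a was at background in wild-type spermatogonia and so rose by at least 2.06. Meiob, a single-strand DNA-binding protein of meiotic recombination, was well above background in Spo11-/- cells, at 6.04, 5.29 and 6.51, against 8.13, 9.62 and 6.25 in wild-type leptotene/zygotene cells and 4.21, 3.84, 4.51 and 3.91 in wild-type spermatogonia. Spo11-/- spermatogonia were above all 4 wild-type spermatogonia arrays for Meiob. The other 4 genes lay below log2 4 in every Spo11-/- array. The largest falls of this kind were those of Lyz2, Cxcl2, H2-Aa, Ctss and Csf1r, all expressed by macrophages, with fitted changes of -4.86 to -5.55, and at least -5.01, -4.34 and -3.44 for Lyz2, Cxcl2 and Csf1r, which were at background in wild-type leptotene/zygotene cells. Their Spo11-/- values were 2.43 to 4.38 in spermatogonia and 6.86 to 10.96 in pre-leptotene cells.

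Later in wild-type prophase the members went both ways, as did the genes tested as a whole. From leptotene/zygotene to mid-pachytene cells (2 arrays), 1658 of 12015 genes rose (13.8%) and 2071 fell (17.2%), or 740 and 629 without mid-pachytene array 2. Of the 852 higher Spo11-/- genes, 92 rose (10.8%) and 110 fell (12.9%), and of the 598 lower genes 130 rose (21.7%) and 99 fell (16.6%). These are shares of all members, of which 805 and 577 were tested. Only the share of lower genes that rose was above that of the genes tested. Majin, Ppp1r35, Herpud1 and Dpp8, lower in Spo11-/- leptotene/zygotene cells, were among those that rose in wild-type mid-pachytene cells, by 2.10, 2.64, 1.94 and 1.83. Piwil1 rose by a further 3.54.

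The difference between the steps, Spo11-/- minus wild type, was tested in the same fit, on the assumption that a lone Spo11-/- array varies like the wild-type ones. It called 2 genes as higher (0.0166%) and 1 as lower (0.00832%) of 12015, or 0.025% in all, with 513 at an unadjusted p below 0.05, and 0 of the 515 tested genes of the lists. Nap1l5, a nucleosome assembly protein gene, differed by 2.32 ± 0.36 (limma, adjusted p = 0.0366). It read 4.43, 4.44 and 5.24 in the Spo11-/- stages, against 3.55, 3.36 and 3.45 in wild-type leptotene/zygotene cells and 5.02, 5.01, 4.96 and 4.87 in wild-type spermatogonia. Its wild-type leptotene/zygotene values were at background, so the fitted size is not exact. The other 2 calls are of genes below background in these wild-type groups, which entered the test through Spo11-/- arrays, so their fitted sizes and p-values are not given as support. Scara3, a scavenger receptor, read 3.13, 5.0 and 5.30 in the Spo11-/- stages, against 3.01 to 3.55 in wild-type leptotene/zygotene cells and spermatogonia. Trgv4, a gamma-delta T cell receptor segment, read 6.29, 12.34 and 2.86 in the Spo11-/- stages, against 2.69 to 3.60 in those wild-type groups. The higher count in limma was 0 without wild-type spermatogonia array 1 or 2 or without any 1 leptotene/zygotene array, with 443 to 652 genes at an unadjusted p below 0.05, and without spermatogonia array 3 it was 1, with 2 lower. Without spermatogonia arrays 1 and 2 together, 0 genes passed in limma, with 550 at an unadjusted p below 0.05. A difference between the genotypes that misses this test is not shown to be absent.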

How the data were processed

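The deposited values are linear intensities that the authors made with GCRMA, per the submitters' processing notes; scanner output was not used here. They ran from 1.48 to 107451 over 45037 probe sets and 23 arrays, and all columns were used, as log2(value + 1). The platform table gave 1 symbol to 34945 probe sets, several to 932 and none to 9160, and 34741 were joined to RefSeq names by Entrez identifier. Each of 18193 genes, 9010 of them with more than 1 probe set, was read from the set with the highest mean over the 13 early arrays.

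The fit used limma 3.58.1 in R 4.3.3 with 1 mean for each of 11 groups of all 23 arrays and 12 residual degrees of freedom, all from wild-type replicates; the number of arrays limits the precision. It gave the wild-type step, mid-pachytene minus leptotene/zygotene, and the difference between the steps, and was tested on simulated data. The members, the 29 gene lists (674 entries, 578 distinct genes measured) and the rules were chosen with earlier results of these data known.

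Named genes were the 15 with the largest gain and the 15 with the largest loss in Spo11-/- cells without predicted names, the 4 nearest to the log2 1 rule inside and outside on each side, the 5 members with the largest called wild-type change in the same and in the opposite direction, on each side, the 5 largest called wild-type rises and falls among genes with a Spo11-/- difference under 0.5, up to 4 of each list with the largest Spo11-/- difference, and 20 meiotic, spermatid and chromatin genes looked at in any case. Predicted names were also left out of the rankings by wild-type change. The 3 genes past the test of the difference were named after their values were seen. Pairing of replicate numbers was checked between wild-type spermatogonia and leptotene/zygotene cells: deviations of same-numbered arrays correlated at 0.593, -0.237 and -0.267 over 12015 genes, so the numbers were not taken as pairs. Alternatives covered the pseudocount, normalization, choice of probe set, filter, eBayes settings, fold minimum, arrays in the fit, the replicate block and each array left out. Leaving out wild-type spermatogonia arrays 1 and 2 together was chosen after seeing the data.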

Additional observations from a re-analysis of the deposited data

Results flagged for a closer look

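The limma test of the difference between the steps, Spo11-/- minus wild type, gave fitted values of 2.32 for Nap1l5, 2.32 for Scara3 and -2.99 for Trgv4 on the log2 scale, each resting on 1 Spo11-/- array per fraction. Scara3 and Trgv4 were below log2 4 in all wild-type leptotene/zygotene and spermatogonia arrays and entered the test through Spo11-/- arrays, so their values do not support a difference between the genotypes. Nap1l5 was at background in wild-type leptotene/zygotene cells, so in wild type it fell by at least 0.96 on the log2 scale, and its Spo11-/- values differed by 0.81. For Scara3, wild-type spermatogonia array 4, at 3.55, stood apart from the other 3 arrays of its group, though all 4 were below background. This check was made on the wild-type spermatogonia arrays for 25 genes and lists, and chance alone marks about 1 in 20.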

How the results depend on the processing

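The Spo11-/- counts of 852 higher and 598 lower genes became 471 and 356 with log2(value + 16), 322 and 170 at a difference of at least log2 1.5, and 137 and 52 at log2 2; the higher count was 552 with both arrays at log2 4 or more and 485 with 1 array at log2 6 or more. The wild-type counts of 197 and 207 became 102 and 100 with no filter, 9 and 10 in a fit of the 10 wild-type early arrays, 66 and 77 without spermatogonia arrays 1 and 2, and 26 to 507 higher and 17 to 568 lower when each array was left out. The members in the same direction, 41 and 38, became 15 and 25 with log2(value + 16), 26 and 21 with the median of the probe sets, 2 and 7 in the fit of 10 arrays, 6 and 25 without those 2 arrays, and 25 higher with no filter, with ranges of 8 to 144 and 10 to 92 over single arrays left out. With the replicate number as a block, which the arrays do not bear out as pairs, the wild-type counts were 655 and 635, the shared members 183 and 98 and the genotype difference 5 and 4. The genotype difference, 2 and 1, otherwise gave 0 higher with median centring, log2(value + 16), a filter at log2 6, or trend and robust settings (388 to 528 genes at an unadjusted p below 0.05 in limma), 2 lower with quantile normalization, 4 and 0 with the median of the probe sets (461 at an unadjusted p below 0.05), 33 and 16 with no filter, and 0 and 0 without the 2 arrays (550 at an unadjusted p below 0.05), with ranges of 0 to 2 and 1 to 2 over single arrays left out. Mid-pachytene counts ranged over 740 to 1778 higher and 629 to 2180 lower. Counting each named gene under each setting once, 146 wild-type values lost the call, 67 gained it, 29 uncalled values moved by more than the replicate spread, and 2988 did none of these. The Spo11-/- differences of Auh and Atad2 turned to 0.02 with the median of the probe sets. The cause of these shifts was not tested. No depth is known for arrays; values under log2 4 limit what low genes show.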

Other observations

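Rsph4a, a radial spoke protein, was at background in Spo11-/- spermatogonia and pre-leptotene cells (3.06 and 2.96) and read 4.84 in leptotene/zygotene cells. Mrc1, a mannose receptor of macrophages, read 3.37, 6.62 and 5.04 in the 3 Spo11-/- stages and Sparc, a matrix protein, 7.79, 10.00 and 9.58. Ldhb, a lactate dehydrogenase subunit on the Leydig list, read 7.31, 9.16 and 8.88. Each of these 4 genes was higher in leptotene/zygotene cells than in spermatogonia, and Mrc1, Sparc and Ldhb were highest in pre-leptotene cells. Ldhc, the lactate dehydrogenase of spermatocytes and sperm, stayed below log2 4 in all 3 Spo11-/- arrays, at 2.95, 2.70 and 3.03, against 13.11, 12.80 and 14.19 in wild-type leptotene/zygotene cells.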
